A study of Mus musculus with 6 samples.

Results

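Replication origin and fork genes are those for the proteins that mark, load and fire replication origins and that copy DNA at the moving fork. The set was defined by a list of 52 gene symbols, chosen with earlier results of these data known, and all 52 are among the 24421 genes of the count table. RNA was sequenced from neural stem cells cultured from the subventricular zone, the wall of the lateral ventricle where adult mice make new neurons, of C57BL/6 mice at postnatal day 60. The tested cells received 20 µM PluriSIn#2, described by the submitters as a specific topoisomerase IIA inhibitor, for 3 days (3 libraries), and the control cells received its solvent DMSO for the same time (3 libraries). Both groups grew with EGF and FGF2 at 20 ng/ml, with a medium change after 24 h, and both were wild type primary cells. The titles of all 3 treated libraries name PluriSIn#2, but the treatment field of replicates 2 and 3 reads PluriSIn#3 and PluriSIn#4. Groups follow the titles here, and counts with PluriSIn#2 replicate 1 alone are given beside the main ones. Whether the replicates are separate cultures is not stated in the labels, and the p-values therefore reflect the spread between these libraries alone, possibly a technical one.

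DNA is copied in an ordered way. In G1 the origin recognition complex (ORC) sits on origins and, with Cdc6 and Cdt1, loads the ring of MCM2-7 proteins, the inactive helicase. In S phase the kinase of Cdc7 and Dbf4, together with cyclin-dependent kinase acting through Ticrr and Topbp1, adds Cdc45 and the GINS complex and starts the helicase. Polymerase alpha with primase then lays down primers, polymerases epsilon and delta extend them, and the sliding clamp PCNA, loaded by replication factor C, holds the polymerases on the template. In neural stem cells, as in other cells, many of these genes are transcribed at the G1 to S boundary under E2F factors and are held low in resting cells.

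The promoters below show the DNA around the starts of these genes, for 5 members that hold E2F-type letters and for Ticrr, the member with the largest fall, which holds none. Each is the RefSeq window on GRCm38.p6, the build of the mm10 assembly, from 250 bases before to 50 bases after the gene's start, read 5′ to 3′ on the gene's strand. Capitals mark a match to TTTGGCGC, TTTCCCGC, TTTCGCGC or TTTGCCGC on either strand. Matches on opposite strands may overlap, as both of Mcm5 do.
Mcm5, chr8:75109259-75109558, plus strand: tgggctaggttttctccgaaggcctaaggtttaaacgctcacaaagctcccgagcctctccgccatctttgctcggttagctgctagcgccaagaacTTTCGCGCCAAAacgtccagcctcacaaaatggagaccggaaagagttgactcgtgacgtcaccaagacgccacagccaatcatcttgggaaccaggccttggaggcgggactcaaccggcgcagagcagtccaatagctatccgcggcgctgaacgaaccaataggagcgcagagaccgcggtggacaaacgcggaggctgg
Mcm6, chr1:128359656-128359955, minus strand: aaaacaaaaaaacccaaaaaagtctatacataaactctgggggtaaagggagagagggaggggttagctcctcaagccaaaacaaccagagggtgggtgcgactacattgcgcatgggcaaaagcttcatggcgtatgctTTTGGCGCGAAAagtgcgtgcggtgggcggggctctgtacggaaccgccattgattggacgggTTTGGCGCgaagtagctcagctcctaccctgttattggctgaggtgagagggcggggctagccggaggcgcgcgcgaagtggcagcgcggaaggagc
Cdc6, chr11:98907901-98908200, plus strand: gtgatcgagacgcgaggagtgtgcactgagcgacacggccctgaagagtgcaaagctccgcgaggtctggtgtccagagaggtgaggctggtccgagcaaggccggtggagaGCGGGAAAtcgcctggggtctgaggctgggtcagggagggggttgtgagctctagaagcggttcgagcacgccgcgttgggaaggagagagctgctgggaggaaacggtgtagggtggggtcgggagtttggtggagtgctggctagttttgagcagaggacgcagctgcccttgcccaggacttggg
Orc1, chr4:108579204-108579503, plus strand: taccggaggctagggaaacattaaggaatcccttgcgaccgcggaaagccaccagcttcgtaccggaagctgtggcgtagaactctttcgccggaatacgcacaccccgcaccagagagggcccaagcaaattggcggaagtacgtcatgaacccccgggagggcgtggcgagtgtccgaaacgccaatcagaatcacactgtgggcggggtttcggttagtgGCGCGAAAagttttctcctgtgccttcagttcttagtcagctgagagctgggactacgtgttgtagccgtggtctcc
Orc3, chr4:34614893-34615192, minus strand: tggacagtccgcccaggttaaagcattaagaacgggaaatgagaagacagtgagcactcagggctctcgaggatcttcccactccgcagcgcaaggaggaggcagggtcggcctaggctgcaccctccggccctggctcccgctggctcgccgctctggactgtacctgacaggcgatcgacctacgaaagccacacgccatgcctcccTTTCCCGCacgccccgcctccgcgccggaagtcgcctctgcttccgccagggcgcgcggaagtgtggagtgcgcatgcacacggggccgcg
Ticrr, chr7:79659946-79660245, plus strand: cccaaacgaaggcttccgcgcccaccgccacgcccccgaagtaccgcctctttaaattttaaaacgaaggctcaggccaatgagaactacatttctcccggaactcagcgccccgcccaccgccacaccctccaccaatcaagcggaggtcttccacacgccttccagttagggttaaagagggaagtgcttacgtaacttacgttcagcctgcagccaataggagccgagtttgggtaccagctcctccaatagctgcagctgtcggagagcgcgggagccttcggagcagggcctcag

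In these windows the matches begin 153 and 149 bases before the start of Mcm5, 110, 106 and 47 bases before that of Mcm6, 138 before Cdc6, 27 before Orc1 and 41 before Orc3. These distances are from the RefSeq starts. GENCODE places the gene starts of Cdc6 and Orc1 further upstream. There the match begins 212 bases inside the gene of Cdc6 and 4 bases inside that of Orc1. The GENCODE starts of Mcm5 and Mcm6 lie further downstream, so their matches begin further before those starts than the distances above. The start of Orc3 differs little. Of the 52 members, 43 were in the promoter table, and 17 of these (39.5%) held such letters in at least 1 window, against 704 of all 27025 genes of the table (2.61%) and 494 of the 10891 tested genes found in it (4.54%). On the gene's own strand alone the shares were 18.6% of members, 1.38% of all genes and 2.34% of tested genes. The 17 members with the letters had a median log2 fold change of -3.27 (between -5.74 and -0.10), and the 26 without them had a median of -2.85 (between -6.05 and 0.10), so both sets span nearly the whole range. A match is a string of letters and was not tested as a binding site.

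The 6 libraries held between 16670962 and 17827158 counts with PluriSIn#2 and between 18186070 and 19241869 with DMSO. Markers of neural stem and progenitor cells were present in both groups: 10 of them summed to between 7743 and 7785 CPM (counts scaled to the TMM-adjusted library size) with PluriSIn#2 and to between 8315 and 8422 CPM with DMSO. Most of both sums came from Vim (3059 CPM against 2667 CPM) and Slc1a3 (2705 CPM against 1936 CPM). Of the 10, 4 were higher in the treated cells, with the largest change in Gfap, an astrocyte and stem cell filament (299 CPM against 42.0 CPM, 7.14-fold higher). The other 6 were lower, 3 of them past 2-fold (edgeR glmTreat): Nes (437 CPM against 1186 CPM), Egfr (210 CPM against 520 CPM) and Fabp7 (715 CPM against 1676 CPM). Sox2 fell less (32.7 CPM against 49.0 CPM). Markers of other cell types also differed, in a data set where 41.7% of all 14417 genes tested were called higher and 40.9% lower. Of 15 microglia and macrophage markers 13 were tested and all 13 were higher, and the list summed to between 174 and 179 CPM with PluriSIn#2 against 3.88 to 5.38 CPM with DMSO, where Trem2 had no read. Of 8 fibroblast and mural markers 7 were higher (220 to 225 CPM against 23.7 to 24.6 CPM). Of 8 endothelial markers 6 were higher (33.4 to 36.3 CPM against 6.08 to 6.75 CPM). Of 8 ependymal markers 7 were tested, and 5 were higher, 2 of them past 2-fold, and 2 were not called. The list summed to 169 to 170.4 CPM against 48.6 to 51.2 CPM, most of it from Foxj1 (144 CPM against 34.1 CPM). All 8 tested of 9 oligodendrocyte lineage markers were lower (2368 to 2437 CPM against 2914 to 3048 CPM), 3 of them past 2-fold. These were Gpr17 (0.130 CPM against 33.2 CPM, from 7 treated reads), Sox10 (0.883 CPM against 24.3 CPM) and Pdgfra (4.91 CPM against 56.9 CPM). Olig1 and Olig2 held most of the list's CPM, and the values of Olig1 overlapped between groups (mean 1655 CPM against 1737 CPM). Of 7 neuroblast and neuron markers 4 were higher and 1 was lower (103 to 110.3 CPM against 79.0 to 84.4 CPM). The part of these other cells in the changes below was not tested.

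Replication genes were lower in PluriSIn#2 than in DMSO almost throughout. Their transcripts made up between 0.0942% and 0.0947% of all counts in the treated libraries, against 0.540% to 0.543% in the DMSO libraries. All 52 genes passed the filter on low counts. Of these, 51 were called lower, none was called higher and 1, Orc4, was not called (edgeR quasi-likelihood test, Benjamini-Hochberg adjusted p under 0.05). The same test called 82.6% of the 14417 genes tested, and 40.9% of them lower. A test against a 2-fold change (edgeR glmTreat) called 48 of the 52 lower, where it called 9.2% of all tested genes lower. For 51 members each PluriSIn#2 value lay below every DMSO value, as it did for 40.9% of all tested genes. The median log2 fold change was -3.20 over the members and 0.01 over all genes tested. With PluriSIn#2 replicate 1 alone against DMSO, 50 members were called lower and 46 were lower past 2-fold. That fit has 1 treated library, takes its spread from the DMSO libraries alone and assumes that the treated library varies like them, so it gives no replicate check of PluriSIn#2 itself. In bulk RNA, fewer cells that replicate and less of these transcripts per cell cannot be told apart.

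**Figure D1:**
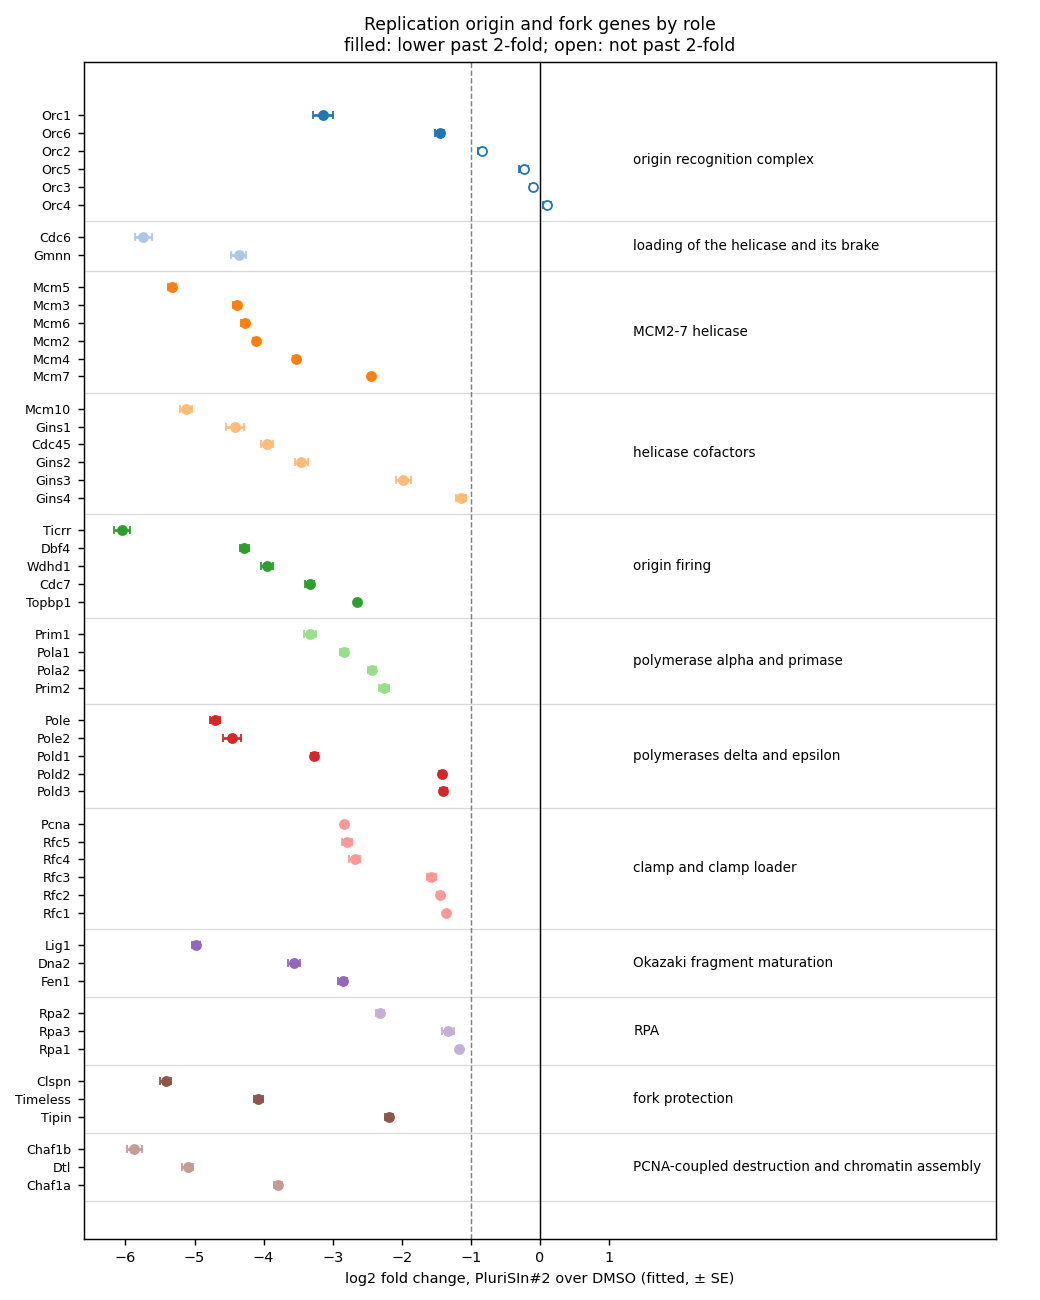
Fitted log2 fold change of PluriSIn#2 over DMSO with its standard error (horizontal axis) for the 52 replication origin and fork genes, grouped by role. Filled points were lower past 2-fold and open points were not. The 4 open points are all subunits of the origin recognition complex, and the lowest point is Ticrr at -6.05.

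The falls varied widely in size. Relative to DMSO the treated cells held a median of 10.8% of a member's level, with a range from 1.49% for Ticrr to 107.6% for Orc4. A fall of at least 2-fold was estimated for 48 members, of at least 8-fold for 27 and of at least 32-fold for 7. Over all 14417 genes the shares with such falls were 11.7%, 2.04% and 0.756%. The coefficient of variation between replicates had a median of 7.59% over members with PluriSIn#2 and of 3.11% with DMSO. The wider spread of the treated values came with fewer reads. The lowest count of any member was 11 to 15 reads per treated library (Cdc6 or Ticrr). Per DMSO library it was 255 to 298 reads (Orc1). Across the 52 members the DMSO level, on a log2 scale, and the log2 fold change had a Pearson correlation of -0.18, a description over genes that share the same libraries.

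**Figure D2:**
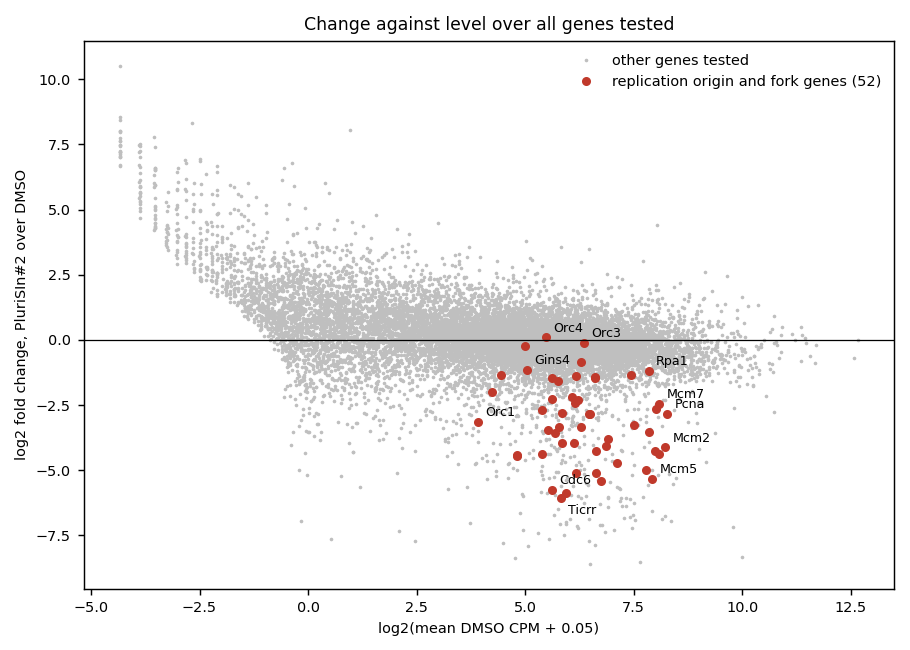
Log2 fold change of PluriSIn#2 over DMSO (vertical axis) against the mean DMSO level, log2(CPM + 0.05) (horizontal axis), for all 14417 genes tested (grey) and the 52 replication genes (red). The replication genes lie below 0 apart from Orc4, at DMSO levels between 15.0 and 309 CPM.

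The origin recognition complex, which marks origins, had the smallest median change of the 12 roles (-0.54), with 5 of 6 genes lower and 2 lower past 2-fold. Orc1, the subunit that comes and goes with the cell cycle, had 1.75, 1.75 and 1.58 CPM in the PluriSIn#2 libraries, against 14.9, 14.3 and 15.9 CPM in the DMSO libraries. The groups lay far apart. It fell 8.88-fold (log2 fold change -3.14, SE 0.14, edgeR adjusted p = 1.89e-35). Orc6, the smallest subunit, fell 2.74-fold (-1.46) and Orc2, which is part of the stable core, 1.80-fold (-0.85). Exons of Orc2 share 29.8% of their length with Nif3l1 on the opposite strand. The core subunits Orc5 (-0.24, adjusted p = 0.000847) and Orc3 (-0.10, adjusted p = 0.0249) were only slightly lower. Orc4, another core subunit (chr2:48902824-48950277 on GRCm38, minus strand), had 48.7, 43.4 and 51.5 CPM with PluriSIn#2, against 39.7, 46.0 and 47.9 CPM with DMSO. These values overlap, and its log2 fold change of 0.10 had a 95% interval from -0.01 to 0.21 and an edgeR adjusted p of 0.0877. The small changes of Orc3 and Orc4 depended on scaling and on single libraries. Scaled by library totals, Orc3 was not called (-0.03, adjusted p = 0.497) and Orc4 was called higher (0.17, adjusted p = 0.00441). Orc3 was also not called without DMSO replicate 3 (-0.05, adjusted p = 0.296) or without PluriSIn#2 replicate 3 (-0.10, adjusted p = 0.0515). Orc4 was called higher without DMSO replicate 3 (0.15, adjusted p = 0.0248) or without PluriSIn#2 replicate 2 (0.17, adjusted p = 0.00719). Without DMSO replicate 1 its log2 fold change was 0.02 (adjusted p = 0.744) and without PluriSIn#2 replicate 3 it was 0.04 (adjusted p = 0.513).

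The loading factor and its brake both fell past 2-fold. Cdc6, the ATPase that joins ORC to receive the helicase, had 0.733, 1.32 and 0.644 CPM in PluriSIn#2, against 45.9, 51.1 and 49.1 CPM in DMSO. That is a 54.3-fold fall (log2 fold change -5.74, SE 0.12, edgeR adjusted p = 3.48e-60), and the treated value rests on 48 reads over 3 libraries. Gmnn encodes geminin, which binds Cdt1 and blocks reloading of origins after S phase has begun. It had 1.80, 2.52 and 1.70 CPM in PluriSIn#2, against 41.2, 40.4 and 43.1 CPM in DMSO, a fall of 20.7-fold (-4.36, SE 0.11, edgeR adjusted p = 2.17e-55). Both the factor that permits loading and the protein that prevents it were thus lower in each treated library than in any DMSO library.

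All 6 genes of the MCM2-7 helicase ring fell past 2-fold, with a median log2 fold change of -4.19. Mcm5 had 5.64, 6.69 and 5.86 CPM with PluriSIn#2, against 248, 238 and 245 CPM with DMSO, the largest fall of the ring (40.2-fold, log2 fold change -5.32, SE 0.054, edgeR adjusted p = 9.92e-86). Mcm2 is a subunit on which Cdc7 kinase acts and which binds histones. It had 18.0, 17.5 and 16.0 CPM against 300.1, 301 and 293 CPM (-4.11, SE 0.043, edgeR adjusted p = 3.58e-85). Mcm3 (-4.39), Mcm6 (-4.27) and Mcm4 (-3.53) lay near it. Mcm7 (chr5:138164583-138172422 on GRCm38, minus strand), which hosts a microRNA cluster, had 50.5, 50.1 and 49.3 CPM with PluriSIn#2 and 276, 275 and 266 CPM with DMSO. Its fall of 5.45-fold (-2.45, SE 0.035, edgeR adjusted p = 4.62e-74) was the smallest of the ring. The groups did not overlap for any of the 6.

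The ring holds 1 copy of each subunit, so the transcript levels of its subunits were also set side by side per length. They are given in FPKM (fragments scaled to gene length and sequencing depth, from the deposited table). Protein was not measured here. With DMSO the 6 subunits lay within 1.76-fold of each other, between 61.9 FPKM for Mcm4 and 109 FPKM for Mcm7. With PluriSIn#2 they spread over 11.9-fold, between 1.77 FPKM for Mcm5 and 21.0 FPKM for Mcm7. The share of Mcm7 in the summed FPKM of the ring was 49.3 ± 0.758% with PluriSIn#2 and 21.9 ± 0.298% with DMSO, and that of Mcm5 was 4.15 ± 0.350% and 13.6 ± 0.269% (mean ± SD, n = 3 libraries per group). Exons of Mcm7 share 12.6% of their length with other genes, mainly Ap4m1 on the opposite strand, so its level is less certain. In ORC the subunits other than Orc1 lay between 10.9 and 13.4 FPKM with PluriSIn#2 and between 11.7 and 28.5 FPKM with DMSO. Orc1 stood at 0.565 FPKM with PluriSIn#2 and at 4.78 FPKM with DMSO, the lowest of the complex in both groups. Summed over its subunits, the ring kept 8.56% of its DMSO FPKM and ORC kept 67.4%.

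**Figure D3:**
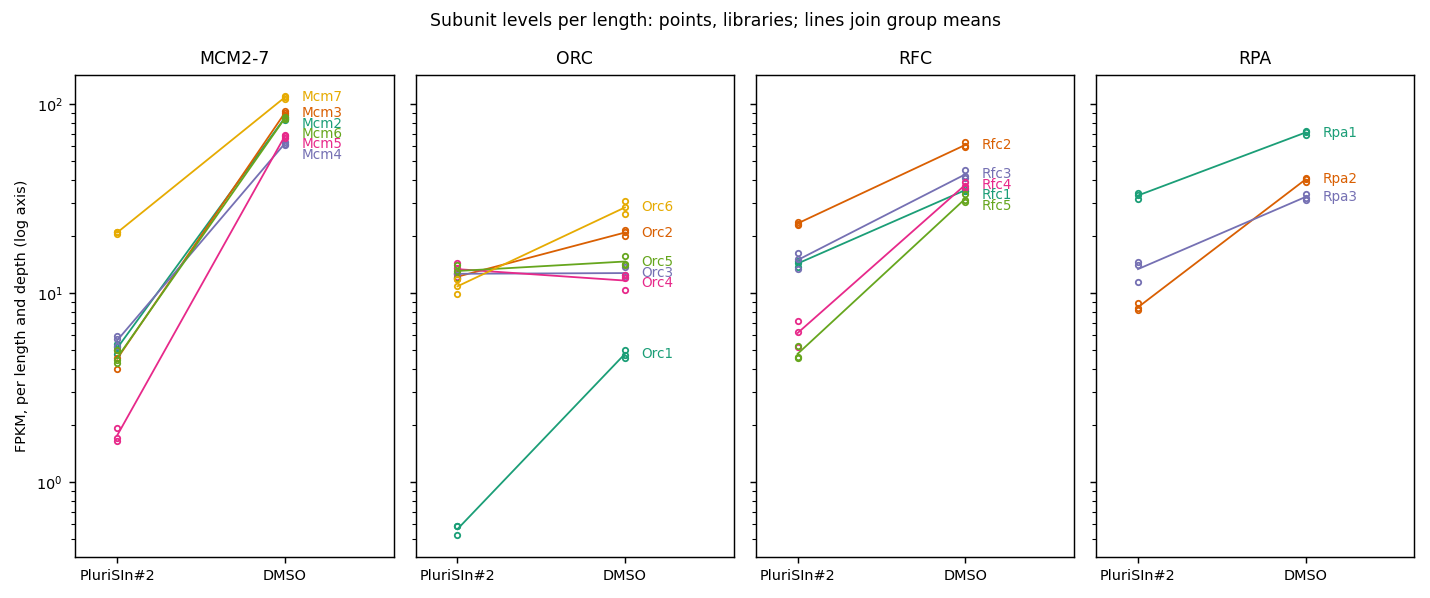
FPKM (vertical log axis) of the subunits of MCM2-7, the origin recognition complex (ORC), replication factor C (RFC) and RPA in PluriSIn#2 (left) and DMSO (right). Points are libraries and lines join the means of 3 libraries. In MCM2-7 the subunits lie close together with DMSO and apart with PluriSIn#2, with Mcm7 highest and Mcm5 lowest, whereas 5 of the 6 ORC subunits lie between 10.9 and 13.4 FPKM with PluriSIn#2.

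The cofactors that turn the ring into a working helicase also fell, all 6 past 2-fold (median -3.70). Mcm10, which binds the active helicase and polymerase alpha, had 2.31, 1.75 and 2.11 CPM in PluriSIn#2 against 75.8, 70.7 and 69.2 CPM in DMSO (log2 fold change -5.12, SE 0.093, edgeR adjusted p = 4.23e-66). Cdc45 fell by 3.95 on the log2 scale. The 4 GINS genes, whose products form a single tetramer, were widely spaced: Gins1 (-4.41), Gins2 (-3.45), Gins3 (-1.98) and Gins4 (-1.14). Gins4 had 14.2, 14.3 and 16.0 CPM with PluriSIn#2, against 30.9, 33.7 and 33.6 CPM with DMSO. Its fall of 2.21-fold (SE 0.074 on the log2 scale, edgeR adjusted p = 1.08e-25) was just past the 2-fold test (glmTreat adjusted p = 0.0356). The share of Gins4 in the summed GINS FPKM was 55.7 ± 2.63% with PluriSIn#2 and 22.4 ± 0.656% with DMSO (mean ± SD, n = 3). Exons of Gins2 share 67.3% of their length with Gse1 on the opposite strand, and the gene length implied by its counts and FPKM was 0.815 times as long in PluriSIn#2 as in DMSO, so its FPKM is less certain.

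All 5 genes of origin firing fell past 2-fold (median -3.95), and 1 of them had the largest fall of the set. Ticrr, the metazoan partner of Topbp1 that receives the cyclin-dependent kinase signal, had 0.959, 0.822 and 0.761 CPM with PluriSIn#2, against 58.0, 54.9 and 57.4 CPM with DMSO. It fell 67.0-fold (log2 fold change -6.05, SE 0.12, edgeR adjusted p = 2.89e-64), and the treated value rests on 45 reads. Topbp1, which also activates the checkpoint kinase ATR, had 42.2, 41.7 and 39.8 CPM with PluriSIn#2 and 254, 262 and 257 CPM with DMSO. Its fall was 6.25-fold (-2.64, SE 0.037, edgeR adjusted p = 5.21e-75), less than that of its partner by far more than either SE. The annotation names the pseudogenes Topbp1-ps1 and Topbp1-ps2, so reads of Topbp1 may be split or lost between copies. Dbf4, the cyclin-like activator of Cdc7, fell by 4.28 on the log2 scale, and Cdc7 itself changed by -3.33. Their FPKM stood at 2.07 for Dbf4 and 2.45 for Cdc7 with PluriSIn#2, and at 38.4 for Dbf4 and 23.6 for Cdc7 with DMSO. The order of the 2 transcripts by FPKM thus changed, at a ratio of higher to lower of 1.18 with PluriSIn#2 and 1.63 with DMSO. Wdhd1, the hub that ties the helicase to polymerase alpha, fell by 3.95.

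The polymerase delta and epsilon genes all fell past 2-fold (median -3.27). Pole, the catalytic subunit of the leading-strand polymerase epsilon, had 5.92, 5.81 and 4.10 CPM in PluriSIn#2, against 134, 139 and 142 CPM in DMSO (26.2-fold lower, log2 fold change -4.70, SE 0.066, edgeR adjusted p = 1.08e-74). Its partner subunit gene Pole2 fell nearly as far (-4.46). Pold1, the catalytic subunit of the lagging-strand polymerase delta, fell by 3.27 on the log2 scale, but its accessory subunits Pold2 (-1.42) and Pold3 (-1.40) fell less. Pold3, which contacts PCNA, had 27.1, 26.8 and 27.6 CPM with PluriSIn#2 and 71.4, 71.1 and 72.4 CPM with DMSO (SE 0.052, edgeR adjusted p = 9.65e-42). The share of Pold1 in the summed FPKM of its 3 subunits was 14.8 ± 0.898% with PluriSIn#2 and 38.4 ± 0.506% with DMSO (mean ± SD, n = 3).

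Polymerase alpha and primase, which make the RNA and DNA primer, moved within a narrower range, from -3.33 to -2.26. Prim1, the catalytic primase subunit, had 4.57, 5.43 and 6.44 CPM with PluriSIn#2, against 50.5, 53.7 and 60.6 CPM with DMSO (log2 fold change -3.33, SE 0.086, edgeR adjusted p = 3.92e-54). Prim2, the large primase subunit, had 10.7, 11.1 and 8.78 CPM against 47.8, 49.8 and 49.2 CPM (-2.26, SE 0.073, edgeR adjusted p = 2.39e-46). Pola1 (-2.83) and Pola2 (-2.43), the catalytic and regulatory subunits of polymerase alpha, lay between them. All 4 were lower past 2-fold.

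Pcna, the sliding clamp and the most abundant member with DMSO in CPM, had 44.6, 44.5 and 40.6 CPM with PluriSIn#2, against 311, 305 and 312 CPM with DMSO. It fell 7.15-fold (log2 fold change -2.84, SE 0.036, edgeR adjusted p = 1.82e-78). The annotation names 2 Pcna pseudogenes, so reads may be split or lost between copies. Among genes of its loader, the small subunit genes Rfc5 (-2.80) and Rfc4 (-2.69) had log2 fold changes near that of Pcna, and Rfc3 (-1.57), Rfc2 (-1.45) and the large subunit gene Rfc1 (-1.36) fell less. Rfc1 had 70.0, 64.6 and 68.3 CPM with PluriSIn#2, against 171, 176 and 173 CPM with DMSO (SE 0.036, edgeR adjusted p = 9.36e-53). Rfc2, Rfc3, Rfc4 and Rfc5 also serve loaders other than that built on Rfc1.

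Genes that finish Okazaki fragments, the short pieces of the lagging strand, all fell past 2-fold (median -3.56). Lig1, the ligase that seals them, had 7.84, 7.02 and 6.09 CPM with PluriSIn#2, against 225, 219 and 219 CPM with DMSO (31.7-fold lower, log2 fold change -4.98, SE 0.054, edgeR adjusted p = 2.37e-83). The nuclease gene Dna2 fell by 3.56. Fen1, the flap nuclease, had 11.3, 11.8 and 13.1 CPM with PluriSIn#2, against 90.0, 88.9 and 84.4 CPM with DMSO (-2.86, SE 0.061, edgeR adjusted p = 1.42e-60). Of the exonic length of Fen1, 84.2% overlaps other genes, mainly the antisense Gm10143, so its counts are less certain.

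RPA, the single-strand binding trimer that also serves repair and recombination, had the smallest median change after ORC (-1.33). Rpa1, its large subunit, had 97.4, 105 and 103 CPM with PluriSIn#2, against 234, 224 and 233 CPM with DMSO (2.26-fold lower, log2 fold change -1.18, SE 0.032, edgeR adjusted p = 1.11e-51). In the treated libraries no other member had a higher mean CPM. Rpa2, the subunit that is phosphorylated on damage, had 14.8, 14.5 and 15.7 CPM with PluriSIn#2 and 72.5, 75.9 and 75.3 CPM with DMSO (-2.32, SE 0.059, edgeR adjusted p = 3.92e-54). Rpa3, the smallest, fell by 1.33. Rpa2 thus held 15.4 ± 1.02% of the summed FPKM of the trimer with PluriSIn#2 and 27.9 ± 0.544% with DMSO (mean ± SD, n = 3).

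The fork protection genes fell in the order Clspn, Timeless and Tipin. Clspn encodes claspin, the adaptor through which ATR activates Chek1. It had 2.26, 2.91 and 2.28 CPM with PluriSIn#2, against 108, 105 and 106 CPM with DMSO (42.9-fold lower, log2 fold change -5.42, SE 0.079, edgeR adjusted p = 2.08e-73). Timeless fell by 4.08 and its obligate partner Tipin by 2.19. Tipin had 15.1, 14.1 and 15.5 CPM with PluriSIn#2 and 66.3, 65.8 and 71.4 CPM with DMSO (SE 0.062, edgeR adjusted p = 4.99e-51).

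Genes that act through PCNA on chromatin had the lowest median of the 12 roles (-5.10). Chaf1b, the middle subunit of the CAF-1 histone chaperone, had 0.959, 0.932 and 1.23 CPM with PluriSIn#2, against 63.0, 61.1 and 59.4 CPM with DMSO (58.8-fold lower, log2 fold change -5.87, SE 0.11, edgeR adjusted p = 3.46e-65). Chaf1a, the large subunit, had 8.46, 8.94 and 8.61 CPM with PluriSIn#2, against 125, 119 and 119 CPM with DMSO (13.9-fold lower, -3.80, SE 0.059, edgeR adjusted p = 5.24e-71). Per length the pair stood at 2.63 FPKM for Chaf1a and 0.546 FPKM for Chaf1b with PluriSIn#2, and at 34.9 and 30.6 FPKM with DMSO, a ratio of 4.82 with PluriSIn#2 and of 1.14 with DMSO. Exons of Chaf1a share 52.5% of their length with Ubxn6 on the opposite strand. Dtl, the substrate receptor that brings Cdt1 to destruction on PCNA, fell by 5.10.

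**Figure D4:**
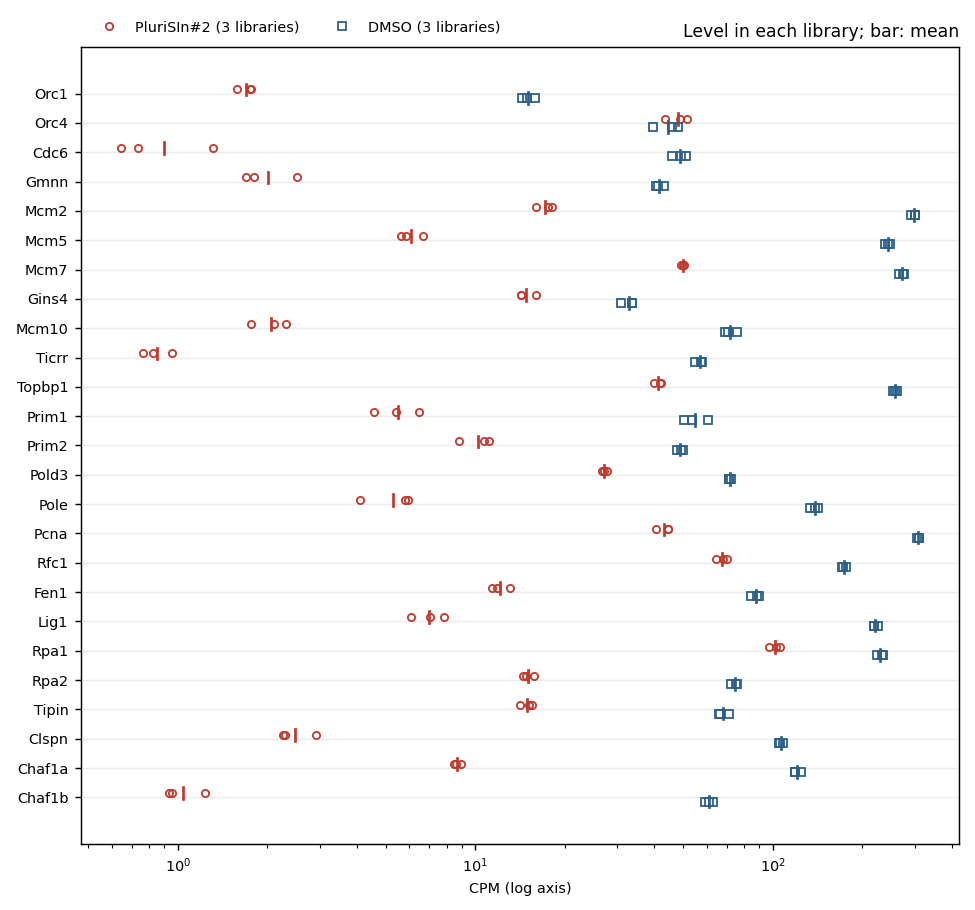
CPM (horizontal log axis) of 25 replication genes in each library, PluriSIn#2 as circles and DMSO as squares, with the mean of 3 libraries as a bar. The groups overlap for Orc4 alone, and Cdc6, Ticrr and Chaf1b lie near 1 CPM with PluriSIn#2.

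Most other genes of the pathway were lower too, in lists chosen for their roles with earlier results of these data known. Of 58 such genes 57 were tested, and 48 were lower, 4 higher and 5 not called, with 33 lower past 2-fold. Their median log2 fold change was -1.45. Over all genes tested 40.9% were lower, 41.7% higher and 9.2% lower past 2-fold. Cdt1, the partner of Cdc6 in loading, fell to 7.65 ± 1.36 CPM in PluriSIn#2, against 68.1 ± 1.27 CPM in DMSO (SD, n = 3; -3.15, edgeR adjusted p = 1.42e-57), and the rest of its list of 10 licensing and firing factors fell as well, the least being Mcm9 (-0.32). Kat7, an acetylase of origins and the most abundant of them, fell by 0.53. Pclaf, the PCNA-associated factor listed under an older symbol, had 0.338, 0.548 and 0.703 CPM with PluriSIn#2 and 196, 195 and 204 CPM with DMSO. At 374-fold lower it fell by more than any of the 52 members, and the treated value rests on 28 reads. Chtf8, of an alternative clamp loader, fell by 0.51. Among histone chaperones all 8 fell, from Asf1b (-5.00) to Asf1a (-0.23), with the abundant Rbbp4 at -0.70.

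Checkpoint genes were divided. Chek1, the kinase that claspin helps to activate, fell by 4.03, whereas Hus1, a subunit of the checkpoint clamp, had 65.9, 66.4 and 64.9 CPM with PluriSIn#2 and 63.2, 66.2 and 66.8 CPM with DMSO (edgeR adjusted p = 0.864). Of 8 checkpoint genes 6 fell and 2 were not called. Dtl works in a ligase with Ddb1 and Cul4a: Ddb1 fell by only 0.25 and Cul4a stood at 144 CPM in both groups (edgeR adjusted p = 0.945). Lrr1, a substrate receptor of helicase unloading, stood at 0.168 CPM with PluriSIn#2 and at 9.26 CPM with DMSO (-5.71, SE 0.27). The treated value of Lrr1 rests on 9 reads. Of 7 translesion synthesis genes, 4 fell, 1 was higher and 2 were not called. Rad18, a ubiquitin ligase that acts on PCNA, fell by 2.98 and the abundant polymerase gene Rev3l by 1.61. Polk had 63.9, 59.8 and 63.7 CPM with PluriSIn#2, against 18.6, 24.7 and 21.9 CPM with DMSO. Polk, a bypass polymerase, was 2.87-fold higher (log2 fold change 1.52, SE 0.061, edgeR adjusted p = 1.46e-39).

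Nucleotide supply split between paralogues. Rrm2, the S-phase subunit of ribonucleotide reductase, stood at 28.1 ± 0.491 CPM with PluriSIn#2 and at 515 ± 7.02 CPM with DMSO (SD, n = 3; -4.20, edgeR adjusted p = 1.17e-92). Rrm2b, the subunit used outside S phase and a p53 target, stood at 34.6 ± 3.19 CPM with PluriSIn#2 and at 26.3 ± 0.368 CPM with DMSO (SD, n = 3; 0.39, edgeR adjusted p = 6.44e-08). The other 5 nucleotide genes fell, Tk1 by the most (-4.99). Of the small polymerase subunit and RNase H2 genes, 5 fell, among them Rnaseh2b (-1.71) and Pole4 (-0.51). Pold4, a subunit of polymerase delta, was called higher (log2 fold change 1.08, edgeR adjusted p = 0.000131) from only 122 reads with PluriSIn#2 and 59 reads with DMSO. In the deposited FPKM table it stood at 13.3 FPKM with PluriSIn#2 and at 7.97 FPKM with DMSO, where it was above Pold3 with PluriSIn#2, so the count and FPKM tables place its level differently. Of the geminin relatives of multiciliated cells, Mcidas was not tested. Gmnc had 55 reads with PluriSIn#2 and none with DMSO. Its level was at least 18.8-fold higher when 3 counts are taken as the limit for all DMSO libraries together. In the same libraries 5 of 7 tested ependymal markers were also higher, with most of the list's CPM from Foxj1.

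A list of 20 mitotic genes, read as a comparison, had a lower median than the replication genes. All 20 fell past 2-fold, with a median log2 fold change of -6.18 and a range from -8.32 for Mki67 to -4.10 for Incenp. The replication genes ranged from -6.05 to 0.10 around their median of -3.20. Genes are not replicates, and the difference between the lists was not tested.

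**Figure D5:**
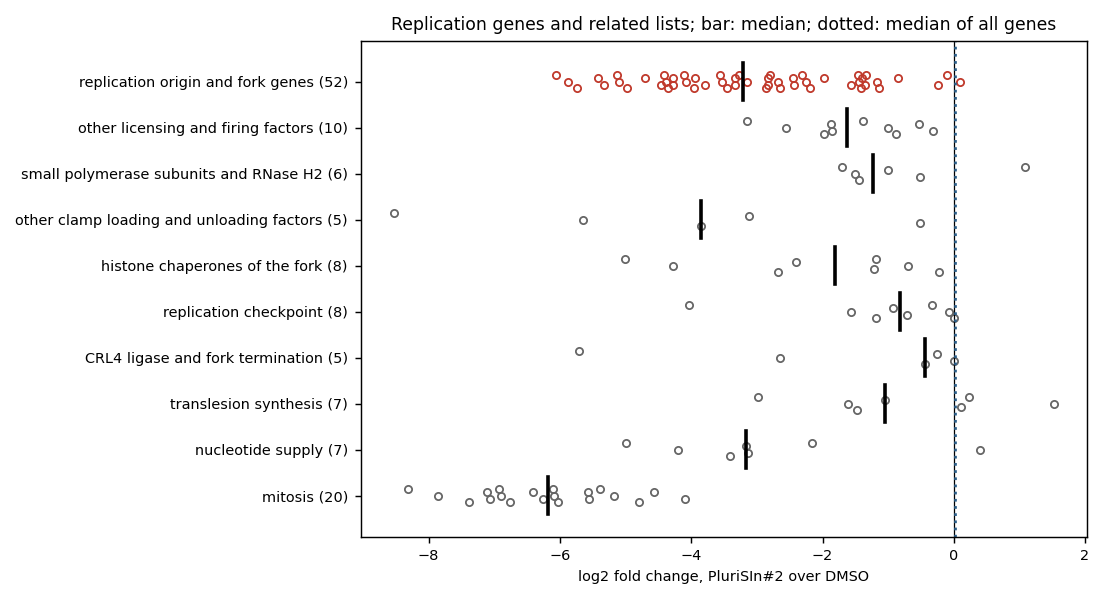
Log2 fold change of PluriSIn#2 over DMSO (horizontal axis) for the 52 replication genes (red) and for related lists (grey), 1 circle per tested gene, with the number tested in brackets and a bar at each median. The medians are -3.20 for the replication genes, -6.18 for mitosis and -3.17 for nucleotide supply, and the dotted line marks the median of all genes at 0.01.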

How the data were processed

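The submitters' processing notes list mm10, STAR, HTSeq and DESeq. Versions, annotation and strand setting: not given in the sources used here. Unnormalized read counts per gene symbol make up the deposited count table. The deposited FPKM table holds values the authors normalized for length and depth, with the authors' own log2 fold changes and p-values. By those values of the authors' deposited table, 50 members were lower and 0 higher at an adjusted p under 0.05.

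Counts were fitted in R 4.3.3 with edgeR 4.0.16 (filterByExpr, TMM, glmQLFit, glmQLFTest; two-sided, group as the only term), adjusted over 14417 genes at a threshold of 0.05. Past 2-fold means glmTreat with a log2 limit of 1. DESeq2 1.42.0, and limma 3.58.1 on log2(FPKM + 1), were alternatives, the latter with genes at 0.5 FPKM or more in 3 libraries. Scripts were tested on simulated data. The 52 members and the lists were chosen with earlier results of these data known. Full values go to 25 members: the lowest and highest change of each of 12 roles, with Mcm2, Pcna, Cdc6, Orc1 and any not called lower. From each related list the lowest, highest and most abundant gene are named.

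Positions are from GENCODE M21 on GRCm38, and promoters from RefSeq. Of 52 promoter windows of 43 members, 45 ended inside a GENCODE transcript that runs in the gene's direction. Intervals cover counting and replicate spread of these libraries only, and low counts are measured in coarse steps. Where genes overlap or lie antisense, their reads may be mixed.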

Additional observations from a re-analysis of the deposited data

How the results depend on the processing

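Each of the 52 members kept its direction under all 15 alternatives, and 768 of 780 gene-level values stayed on the same side of the threshold. The 12 others concern Orc3, Orc4 and Orc5. Orc3 lost its call in DESeq2 (adjusted p = 0.0658), with PluriSIn#2 replicate 1 alone (0.165, spread from DMSO alone) and in limma on FPKM (0.851 and 0.853 with pseudocounts of 1 and 0.1), besides the cases given above. Orc5 lost its call in limma (0.0503 and 0.0518). The count of members called lower ran from 49 to 51, and that of members lower past 2-fold from 45 to 48. Members called higher numbered 1 with library totals and between 0 and 1 when a library was left out. The members' median log2 fold change was -3.14 with library totals, -3.14 with PluriSIn#2 replicate 1 alone, -2.70 and -2.98 in limma with pseudocounts of 1 and 0.1, and between -3.24 and -3.18 when a library was left out. A pseudocount understates the falls of genes at low FPKM by construction. Genes lower past 2-fold numbered 827 in limma with a pseudocount of 1, against 1327; that fit also differs in test, input, filter and genes tested (14038 against 14417), and the cause was not tested. Library totals moved the median of all genes by 0.07. The share of member promoters with E2F-type letters was 18.6% on the gene's strand alone. Pairing by replicate number was not seen: same-numbered libraries' deviations correlated between -0.003 and 0.01, and differently numbered ones between -0.021 and 0.023. Libraries within a group differed little, so this cannot exclude a pairing. With the replicate block 51 members were called lower and 48 past 2-fold, the median being -3.20. The treated values of Cdc6, Ticrr and Chaf1b rest on 45 to 55 reads.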
